A study of Arabidopsis thaliana with 8 samples.

Results

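The genes described here are 45 *Arabidopsis thaliana* loci whose probes stood much higher in the order of brightness on the arrays of the *atpd* mutant than on those of the wild type (WT). They were chosen by their measured values. The percentile rank of every probe was taken within each array over all 3439 probes (0 for the dimmest, 100 for the brightest, ties averaged). Among the 571 single-gene probes above 0 on all 8 arrays, 129 had every *atpd* rank above every WT rank, and the 50 with the largest difference of mean ranks were taken. Of these, 5 belong to a set of 17 named loci that the rule leaves out, and 45 probes for 45 loci remain. The contrast of *atpd* with WT in ranks and intensities is therefore what the choice was made on. It is given below as a description, without a test.

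The study compared total RNA of *atpd*, a mutant without the ATP synthase delta subunit, with that of WT, on 4 arrays each. Both genotypes were of ecotype Wassilevskija and were grown on MS medium (Murashige and Skoog, a defined mineral medium for plant culture). The labels give no age, tissue, light regime or mutant allele. Nor do they tell if the arrays of 1 genotype stand for different plants, so the spread between arrays may be technical only. In a bulk sample, fewer cells of a type and less RNA per cell cannot be told apart.

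The chloroplast ATP synthase uses the proton gradient that photosynthetic electron flow builds across the thylakoid membrane to make ATP. Its delta subunit, encoded in the nucleus, joins the catalytic head to the stalk that holds it on the membrane-embedded part. Most chloroplast proteins are nuclear-encoded like this one, and the abundance of their transcripts is known to respond to the state of the organelle. A rank places a transcript among the others measured on the same array, so it does not change when a whole array is made brighter or dimmer by a common factor.

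Between 395 and 430 probes per array were listed at 0, so the dimmest probe above 0 had a rank of 11.5 to 12.5. The median intensity above 0 was 0.613 to 0.705 on the *atpd* arrays and 0.279 to 0.303 on the WT arrays, in the arbitrary units of the deposited table. No single-gene probe was found for the 4 nuclear loci of the chloroplast ATP synthase, *ATPD* included, so the transcript of the mutated gene gives no check of the labels. The number of arrays limits the precision.

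The 45 loci stood in the upper part of the *atpd* order and mostly in the lower part of the WT order. Their mean rank ran from 53.2 to 98.1 in *atpd* (median 77.3), against 17.7 to 63.3 in WT (median 36.7). The difference of mean ranks, *atpd* minus WT, was 31.6 to 69.5 percentile points with a median of 40.4. Over all 571 single-gene probes its median was -0.67. In *atpd* 26 of the 45 had a mean rank above 75, a place held by 28.0% of the 571, and in WT 38 of the 45 had a mean rank below 50, a place held by 40.8%. Probes near the top of the WT order have little room to climb, so a choice by rank difference favours transcripts that are dim in WT. The same choice favours high ranks in *atpd*, so nothing is read from either of these shares.

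**Figure D1:**
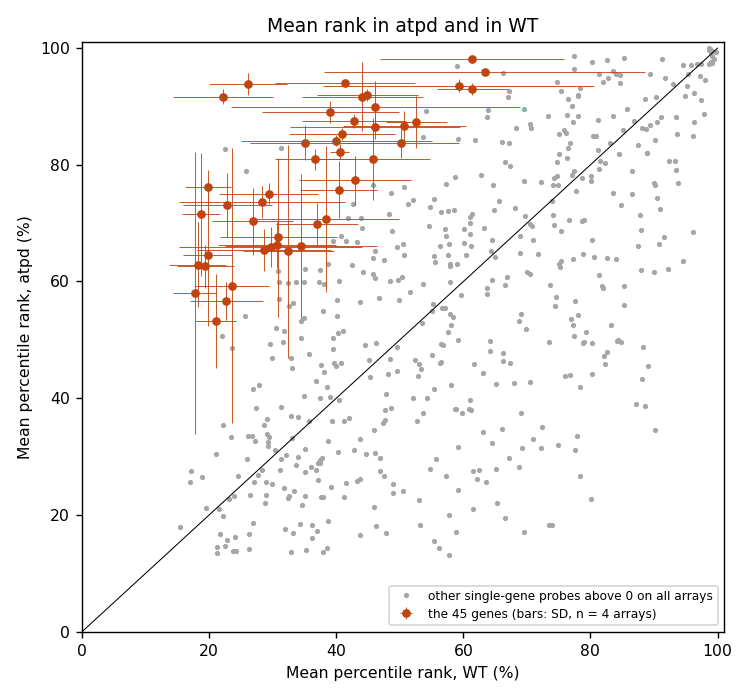
Mean percentile rank in *atpd* (vertical axis, %) against WT (horizontal axis, %) for the 571 single-gene probes above 0 on all arrays; filled points with bars are the 45 loci (mean ± SD, n = 4 arrays), grey points the rest, and the line marks equal ranks. The 45 lie above the line by 31.6 to 69.5 points, and 38 of them have a WT mean rank below 50.

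By the rule, *atpd* and WT ranks did not overlap for any of the 45. The same separation was met by 22.6% of the 571 probes, and the opposite one, with every *atpd* rank below every WT rank, by 28.7%. For 22 loci all WT ranks were below 50 and all *atpd* ranks above 50. The gap from the highest WT rank to the lowest *atpd* rank was over 10 points for 38 loci and 10 points or less for 7, and it ranged from 1.98 for AT5G49840 to 60.9 for AT2G21720. These counts of loci were not taken over the 571 probes, and the choice by rank difference shapes them, so nothing is read from them. In a limma fit over 2921 probes (quantile-normalised log2 intensities, Benjamini-Hochberg adjusted p below 0.05), 45 of the 45 were called higher in *atpd*, where 21.4% of all tested probes were. That fit uses the contrast that chose the loci, so nothing is read from the count. With the replicate number as a block 44 were called, where 23.3% of all tested probes were, and AT1G44830 was not.

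**Figure D2:**
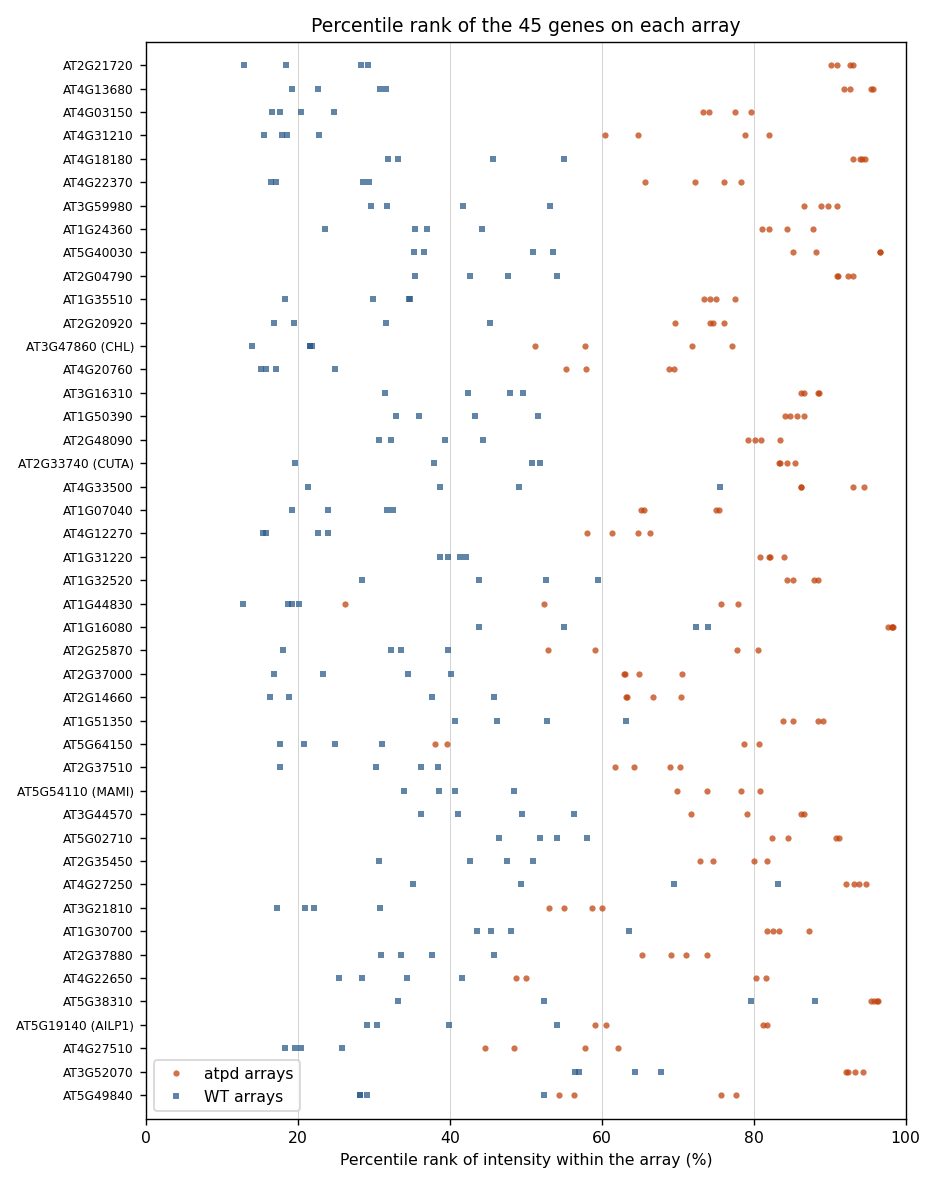
Percentile rank within each array (horizontal axis, %) for the 45 loci, from the largest difference of mean ranks at the top to the smallest; circles are the 4 *atpd* arrays and squares the 4 WT arrays. The genotypes are apart in every row, by as little as 1.98 points in AT5G49840 at the bottom and by 60.9 points in AT2G21720 at the top.

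On the deposited scale the 45 probes together summed to 55.0 to 58.4 units on the *atpd* arrays and to 7.65 to 8.55 on the WT arrays. They made up 1.58% to 1.65% of all signal on an *atpd* array and 0.251% to 0.267% on a WT array. The highest single value of any of them was 5.90 in *atpd* and 0.918 in WT, on arrays whose brightest probes lay at 91.8 to 100. In both genotypes these transcripts were far dimmer than the brightest ones on the same arrays. For 20 loci at least 1 WT rank was below 20, close to the dimmest probes above 0.

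All 45 loci are listed as protein-coding in the RefSeq gene table of assembly TAIR10.1, which served for names only. The table gives 4 of them a symbol of their own (CHL, CUTA, MAMI and AILP1) and the other 41 only their locus tag. Roles named below for the latter are general knowledge of *Arabidopsis* proteins and were not checked against the files.

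The 12 loci with the largest rank differences are given first, and a role or protein family is named for only some of them. AT2G21720, a protein of unknown function, had intensities of 1.51, 1.56, 1.72 and 1.79 on *atpd* arrays 1 to 4, against 0.136, 0.141, 0.00390 and 0.0572 on WT arrays 1 to 4. All *atpd* values were over 10 times the highest WT value, and WT array 3 was far below the other WT arrays. Its mean rank was 91.7 ± 1.37 in *atpd* and 22.2 ± 7.89 in WT (SD, n = 4 each, as for all ranks below). AT4G13680 had intensities of 2.42, 2.36, 1.73 and 1.66 in *atpd*, against 0.153, 0.150, 0.0858 and 0.0629 in WT. In both genotypes its arrays 1 and 2 were brighter than arrays 3 and 4, and its rank was 93.9 ± 1.89 in *atpd* and 26.1 ± 6.10 in WT.

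AT4G03150 was even across the mutant arrays, with 1.04, 0.991, 0.963 and 0.962 in *atpd* against 0.0491, 0.0609, 0.0988 and 0.0721 in WT. AT4G31210, a type IA DNA topoisomerase, an enzyme that relaxes DNA by cutting a single strand, had 1.12, 1.02, 0.751 and 0.825 in *atpd* against 0.100, 0.0408, 0.0503 and 0.0581 in WT. Both loci lay among the dimmest measured transcripts of WT, with mean ranks of 76.2 ± 2.97 and 71.5 ± 10.5 in *atpd* against 19.8 ± 3.64 and 18.7 ± 3.01 in WT. AT4G22370 had 0.944, 1.01, 0.935 and 0.839 in *atpd* against 0.136, 0.141, 0.0384 and 0.0418 in WT, where arrays 1 and 2 were brighter than arrays 3 and 4.

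AT4G18180, a protein of the pectin lyase fold, a family that includes enzymes acting on cell wall pectin, had intensities of 1.83, 1.95, 1.97 and 2.05 in *atpd* against 0.156, 0.160, 0.226 and 0.288 in WT. AT1G35510, of the protein O-fucosyltransferase family, had 0.975, 0.897, 0.977 and 0.963 in *atpd* against 0.144, 0.168, 0.0557 and 0.161 in WT. The *atpd* values of both were tightly grouped, with rank SDs of 0.70 and 1.79 points, while the WT ranks had SDs of 11.0 and 7.75 points. AT5G40030, a protein kinase, had 1.25, 1.39, 2.93 and 2.97 in *atpd* against 0.173, 0.249, 0.279 and 0.173 in WT. Its *atpd* arrays split into a dimmer and a brighter pair, yet in rank they lay within 85.2 to 96.7.

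AT1G24360 is the 3-oxoacyl-ACP reductase of plastid fatty acid synthesis, which carries out the first reduction in each round of chain elongation. It had intensities of 1.21, 1.36, 1.12 and 1.16 in *atpd* against 0.106, 0.180, 0.164 and 0.220 in WT, and a mean rank of 83.8 ± 2.97 in *atpd* and 35.0 ± 8.56 in WT. AT3G59980, with an OB-fold of the tRNA-binding kind, had 1.31, 1.42, 1.46 and 1.56 in *atpd* against 0.203, 0.261, 0.127 and 0.143 in WT. Neither locus had an *atpd* array apart from the rest. The last 2 of the 12, like AT4G13680, AT4G03150 and AT4G22370, have no role given here. AT2G04790 had 1.84, 1.69, 1.58 and 1.58 in *atpd* against 0.238, 0.266, 0.206 and 0.165 in WT, and AT2G20920 had 0.900, 0.939, 0.894 and 0.983 in *atpd* against 0.0759, 0.152, 0.0426 and 0.227 in WT. The WT values of AT2G20920 spanned a rank SD of 13.0 points, the widest WT spread among these 12.

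**Figure D3:**
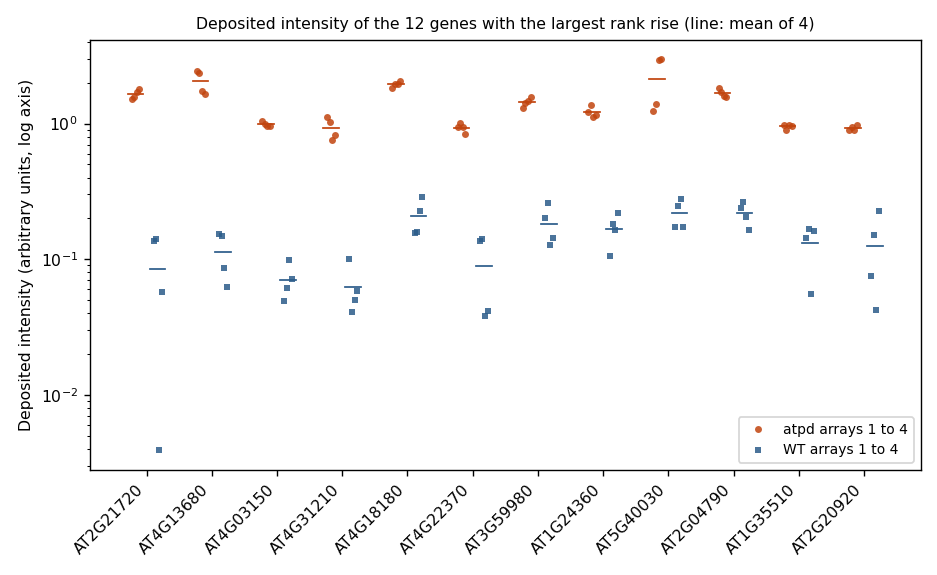
Deposited intensity (vertical axis, arbitrary units, log scale) of the 12 loci with the largest rank difference; circles are *atpd* arrays, squares WT arrays, each from replicate 1 to 4 from left to right, and lines the mean of 4. No WT value reaches the *atpd* values of its locus, and the lowest WT point is AT2G21720 on array 3, at 0.00390.

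Further down the order, CHL (AT3G47860), the chloroplast lipocalin, a lumenal protein that protects thylakoid lipids under oxidative stress, had intensities of 0.550, 0.636, 1.02 and 0.932 in *atpd* against 0.0908, 0.0250, 0.0819 and 0.0814 in WT. CUTA (AT2G33740), a chloroplast relative of the bacterial copper tolerance protein CutA, had 1.17, 1.20, 1.26 and 1.21 in *atpd* against 0.257, 0.0830, 0.178 and 0.265 in WT. The CHL ranks of *atpd* fell into a lower pair (arrays 1 and 2) and a higher pair (arrays 3 and 4), whereas those of CUTA had an SD of 1.01 points. AT5G49840, a ClpX-type subunit, which unfolds proteins for an organellar Clp protease, had 0.617, 0.591, 0.988 and 1.05 in *atpd* against 0.135, 0.135, 0.269 and 0.127 in WT. Its WT array 3 had a rank of 52.4, close under the lowest *atpd* rank of 54.4.

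Of loci with roles in metabolism, AT1G31220, the glycinamide ribonucleotide formyltransferase of purine synthesis, was the most even: its intensities were 1.12, 1.09, 1.20 and 1.17 in *atpd* against 0.195, 0.189, 0.198 and 0.208 in WT. Its rank SD was 1.32 points in *atpd* and 1.56 in WT, the latter the smallest WT spread of the 45. AT1G30700, of the berberine bridge enzyme family of flavin oxidases, had 1.11, 1.13, 1.32 and 1.20 in *atpd* against 0.213, 0.337, 0.224 and 0.242 in WT. AT4G12270, of the copper amine oxidase family, had 0.756, 0.725, 0.722 and 0.773 in *atpd* against 0.0989, 0.0399, 0.0329 and 0.0974 in WT. For both, the *atpd* arrays lay close together and well above all WT arrays. AT1G50390, of the pfkB family of sugar kinases, had 1.20, 1.26, 1.23 and 1.31 in *atpd* against 0.161, 0.253, 0.212 and 0.169 in WT. AT4G27250, an NAD(P)-binding reductase, had 2.11, 1.92, 1.77 and 1.69 in *atpd* against 0.248, 0.171, 0.725 and 0.440 in WT, where arrays 3 and 4 were the brighter ones.

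Regulators of transcription and of signalling, and a protein with an RNA recognition motif, were among the 45 as well. AT1G44830, a transcription factor of the AP2/ERF family, had intensities of 0.568, 0.270, 1.03 and 1.01 in *atpd* against 0.0800, 0.0803, 0.0604 and 0.00265 in WT. Its *atpd* array 2 had a rank of 26.1, only 6.07 points over the highest WT rank, and its rank SD of 24.2 points in *atpd* was the widest of the 45. AT2G37000, of the TCP family of transcription factors, had 0.703, 0.728, 0.780 and 0.908 in *atpd* against 0.169, 0.196, 0.0906 and 0.0395 in WT. AT4G33500, a protein phosphatase of the 2C class, had 2.07, 1.78, 1.29 and 1.30 in *atpd* against 0.468, 0.0939, 0.249 and 0.186 in WT. Its WT arrays were widely scattered, with ranks of 21.3 to 75.6. AT2G37510, with an RNA recognition motif, had 0.688, 0.820, 0.882 and 0.814 in *atpd* against 0.188, 0.147, 0.0479 and 0.171 in WT.

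AT3G16310, a relative of the nucleoporin Nup35 of the nuclear pore, had intensities of 1.31, 1.29, 1.38 and 1.41 in *atpd* against 0.152, 0.205, 0.241 and 0.250 in WT. MAMI (AT5G54110), named in the reference as membrane-associated and mannitol-induced, had 1.08, 1.01, 0.898 and 0.971 in *atpd* against 0.188, 0.198, 0.151 and 0.244 in WT. AILP1 (AT5G19140) had 0.669, 0.653, 1.13 and 1.16 in *atpd* against 0.147, 0.140, 0.190 and 0.280 in WT. In AILP1 the lowest *atpd* rank, 59.1, was 5.03 points above the highest WT rank. AT1G16080 was the brightest of the 45 in *atpd*, with 5.90, 4.53, 5.66 and 5.88 against 0.433, 0.451, 0.294 and 0.219 in WT. Its mean rank of 98.1 ± 0.30 in *atpd* was the highest of the 45, and with a WT rank of 61.3 ± 14.5 the difference was 36.8 points.

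The remaining loci are AT4G20760, AT2G48090, AT1G07040, AT1G32520, AT2G25870, AT2G14660, AT1G51350, AT5G64150, AT3G44570, AT5G02710, AT2G35450, AT3G21810, AT2G37880, AT4G22650, AT5G38310, AT4G27510 and AT3G52070. Among these, the difference of mean ranks ran from 31.6 for AT3G52070 to 44.7 for AT4G20760. AT5G38310 was the brightest of them in *atpd*, with intensities of 2.81, 2.69, 2.44 and 2.33, against 0.162, 0.258, 0.918 and 0.625 in WT. Its WT ranks ran from 33.2 to 88.1, the widest WT spread of the 45 (SD 25.2 points), while its *atpd* ranks lay between 95.4 and 96.3.

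At the lower end of the 50, the last 3 places inside were held by AT4G27510 (32.2 points), AT3G52070 (31.6) and AT5G49840 (31.6). The next 3 outside were AT4G39570 (31.1), AT5G10910 (31.0) and AT2G47830 (30.6). No step separates the last loci taken from the first ones left.

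The size of the log2 difference depended on the scaling. All 45 were positive in each of the 4 scalings tried. The choice by rank all but fixed that sign in advance, so nothing is read from it. On the deposited scale the 45 differences, *atpd* minus WT, ranged from 2.25 to 5.17 with a median of 2.87, on a scale where the median of all 2921 tested probes was itself 0.996. After quantile normalisation they ranged from 1.15 to 3.89 (median 1.73, all probes -0.090), with a common median from 1.08 to 4.01 (median 1.71, all probes -0.17) and after cyclic loess from 1.09 to 3.96 (median 1.69, all probes 0.043). AT2G21720 had the largest difference in each, at 3.89 (SE 0.75) after quantile normalisation, and AT1G16080, in 29th place by rank, came next there at 3.54 (SE 0.26). AT2G37880 had the smallest after quantile normalisation, at 1.15 (SE 0.17), and AT1G31220 was at 1.50 with the smallest SE, 0.12.

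Ranks were tighter between arrays in *atpd* than in WT. The rank SD of the 45 loci had a median of 3.47 points in *atpd* and 8.20 in WT, and it was lower in *atpd* for 35 of the 45. Over the 571 single-gene probes the medians were 3.94 points in *atpd* and 7.23 in WT, and 67.8% were lower in *atpd*. The difference in spread was therefore found in the 571 as well.

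Within a genotype the arrays fell into pairs, 1 with 2 and 3 with 4. Deviations from the genotype mean correlated at 0.552 and 0.805 within the *atpd* pairs and at 0.262 and 0.172 within the WT pairs, and at -0.852 to -0.581 between arrays of 1 genotype in different pairs (2848 probes above 0 on all arrays; deviations sum to 0, which by itself lowers these values). The labels do not mention such pairs, and whether they are repeats of the same RNA is not stated. For the 45 loci the rank difference had a median of 42.6 points in replicates 1 and 2 and 41.0 in replicates 3 and 4. It was larger in replicates 1 and 2 for 23 loci and in replicates 3 and 4 for 22. For 11 loci the differences were unequal by over 1.5 times, 6 of them larger in replicates 1 and 2 and 5 larger in replicates 3 and 4.

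In 7 loci it was the *atpd* arrays that moved by over 20 points between the pairs. Higher in *atpd* arrays 3 and 4 were AT5G64150, AT1G44830, AT4G22650, AT5G19140, AT5G49840 and AT3G47860. In AT5G19140 and AT5G49840 the WT ranks rose as well, by 17.2 and 12.7 points, against 21.6 and 21.4 in *atpd*. AT5G64150 had a mean *atpd* rank of 38.8 in the first pair of arrays and 79.7 in the second, with WT ranks of 19.2 and 27.9. For AT4G22650 the *atpd* ranks were 49.3 and 81.0 in the same order, and the WT ranks 31.4 and 33.4. AT2G25870 went the other way, with 79.1 and 56.0 in *atpd* and 25.7 and 36.0 in WT.

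In 4 other loci it was the WT arrays that moved by over 20 points between the pairs. AT5G38310 had a mean *atpd* rank of 96.3 in the first pair and 95.6 in the second, against WT ranks of 42.8 and 83.9. AT4G27250 had 94.3 and 92.7 in *atpd* against 42.2 and 76.3 in WT, and AT2G14660 had 68.6 and 63.2 in *atpd* against 17.5 and 41.7 in WT. AT1G16080 had 97.9 and 98.3 in *atpd* against 73.2 and 49.5 in WT. As a result the rank difference of AT5G38310 was 53.5 points in replicates 1 and 2 and 11.7 in replicates 3 and 4. That of AT1G44830 was 19.6 and 61.1 points.

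**Figure D4:**
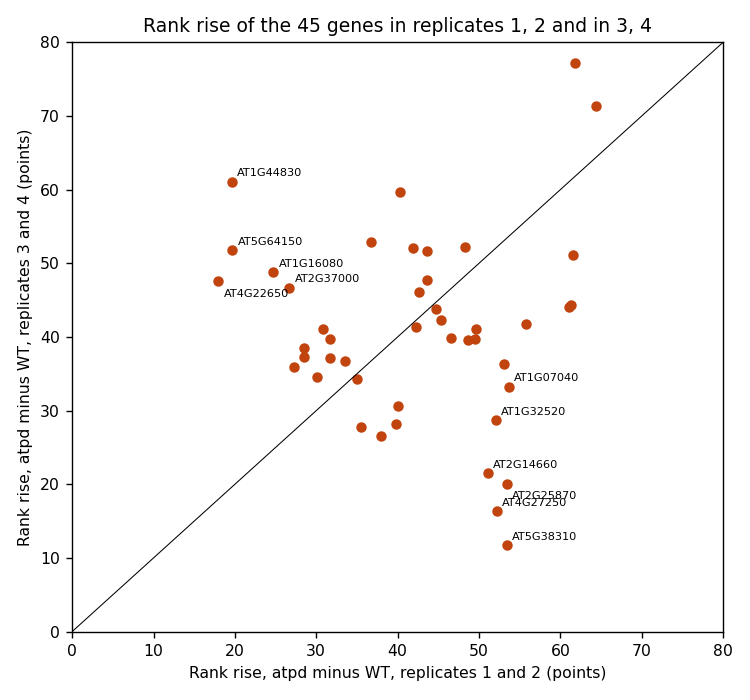
Difference of mean percentile ranks, *atpd* minus WT, in replicates 3 and 4 (vertical axis, points) against replicates 1 and 2 (horizontal axis, points) for the 45 loci; the line marks equality, and the 11 loci whose differences are unequal by over 1.5 times are named. AT5G38310 lies lowest, at 11.7 points in replicates 3 and 4, and AT4G22650 farthest left, at 18.0 points in replicates 1 and 2.

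AT2G25870, a YbeY-type endoribonuclease known for chloroplast ribosomal RNA maturation, is the only one of the 45 loci with a second single-gene probe. The probe that was chosen (number 2853) had intensities of 1.07, 0.996, 0.654 and 0.747 in *atpd*, against 0.0624, 0.162, 0.141 and 0.193 in WT. The second probe (number 2727), which did not meet the rule, had 0.962, 0.912, 0.345 and 0.335 in *atpd*, against 0.406, 0.471, 0.249 and 0.166 in WT. Its mean rank was 51.4 ± 28.1 in *atpd* and 57.6 ± 18.6 in WT, a difference of -6.18 points, and the genotypes overlapped. The probes therefore disagreed on the rank of this locus between genotypes, although on both of them *atpd* arrays 1 and 2 ranked above *atpd* arrays 3 and 4.

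**Figure D5:**
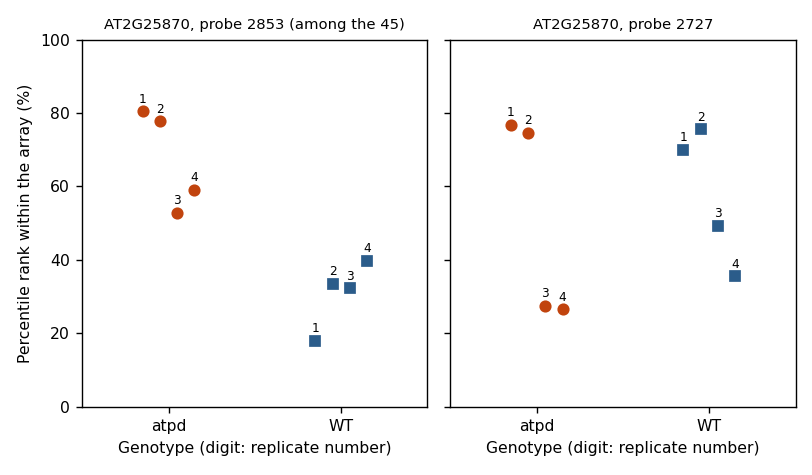
Percentile rank within the array (vertical axis, %) of both single-gene probes of AT2G25870, with *atpd* left of WT and the replicate number beside each point. On probe 2853 every *atpd* array is above every WT array, while on probe 2727 the *atpd* arrays 3 and 4, at 27.5 and 26.5, lie below all WT arrays.

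A further 4 probes are annotated with several genes of which a locus of the 45 is one. Their signal cannot be given to any one gene. None of the 4 had all *atpd* ranks above all WT ranks, and their rank differences were -13.3, -8.57, -8.19 and 0.022 points. The last of them lay at a mean rank of 6.07 in *atpd* and 6.05 in WT, below every probe above 0. It was thus at 0 on every array, and its 0.022 points are no measured difference.

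The probes of the 45 loci are scattered through the numbering of the table, except that 3 pairs have consecutive numbers: AT2G21720 with AT1G35510 (472 and 473), AT2G20920 with AT2G37880 (2031 and 2032) and AT2G04790 with AT4G20760 (3370 and 3371). Whether consecutive numbers lie side by side on the array is not stated. The 66 probes numbered directly before or after a chosen probe had a median rank difference of -0.28 points, and 48.5% of them were higher in *atpd*. These 66 include the 6 chosen probes of the 3 pairs, which are higher by the rule and raise that share. For the 842 such neighbours of all 571 single-gene probes the median was -1.62 points, and 44.1% were higher. A probe lying between single-gene probes is counted more than once in the 842. Nothing is therefore read from the difference between these shares.

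The 4 probes measured from short lists of photosystem and Calvin cycle loci, given for comparison, lay near the top of the WT brightness order. These lists do not cover all photosynthesis loci on the array. Of 12 photosystem I loci 1 had a single-gene probe above 0 on all arrays, of 11 photosystem II loci 2, and of 8 Calvin cycle loci 1. PSAN of photosystem I, PSBY of photosystem II and PRK of the Calvin cycle had every *atpd* rank below every WT rank, with differences of -1.28, -4.02 and -6.24 points, and PSBW of photosystem II had every *atpd* rank above, with 1.12 points. Their mean WT ranks were 96.3 to 98.9, so a difference of the size seen in the 45 was not open to them in the upward direction.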

How the data were processed

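RNA of 4 *atpd* and 4 WT arrays was analysed from the deposited value table, which holds linear intensities, 1 per probe and array. What the authors did to obtain the deposited intensities (background, scaling, the values at 0, the ceiling near 100) is not given in the sources used here. Groups and replicate numbers come from the sample titles. The platform annotation names a single gene for 692 of 3439 probes, several for 870 and none for 1877, and 690 of the 692 matched the reference gene table.

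Percentile ranks were computed within each array (Python 3.11.15, pandas 2.3.3). For the log2 fits, values at 0 were treated as missing, probes needed 3 values per genotype, and log2 intensities were quantile-normalised and fitted with limma 3.58.1 under R 4.3.3 (two-sided, adjusted by Benjamini-Hochberg, threshold 0.05). The fit and the rank rule were tested on simulated data. The loci and comparison lists were chosen with earlier results of these data known. Values on every array are given for the 12 largest rank differences and for loci whose role, family or symbol is named here. That no role is named for a locus does not mean that none is known. AT1G16080 and AT5G38310 were added after their values were seen.

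Deviations from genotype means correlated at 0.236 to 0.330 between *atpd* and WT arrays of the same number (2848 probes above 0 on all arrays). All were above 0.1, so the numbers were taken to pair the arrays in the settings with a replicate block. The main fit and its SEs did not use this pairing. *atpd* and WT arrays of different numbers within replicates 1 and 2 or within 3 and 4 correlated at 0.152 to 0.238, and across these sets at -0.285 to -0.193, so the data show mainly these sets. No pair of arrays shared more than 3 values above 0. The fit was repeated with other scalings and filters, a replicate block and each array left out. Promoter and protein sequences were not used here.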

Additional observations from a re-analysis of the deposited data

Results flagged for a closer look

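Among 90 groups of 4 arrays (45 loci, 2 genotypes), 2 held an array whose percentile rank lay far from the other 3, by Dixon's criterion at 95%. For independent, normally distributed values chance alone flags about 1 in 20 groups, or 4.5 of 90. The arrays fell into pairs within each genotype, so that number need not hold here, and the 2 are not read against it. AT3G47860 (CHL) had a rank of 14.0 on WT replicate 2, against 21.5 to 21.9 on the remaining WT arrays. AT5G49840 had a rank of 52.4 on WT replicate 3, against 28.1 to 29.1 on the remaining ones.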

How the results depend on the processing

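Of the 45 loci, 20 were found again under each of 19 other ways of ordering the probes, among them the 19 with the largest rank difference. Ordering by log2 intensity found 31 of the 45 as deposited (68.9% of the 45 and 70.5% of that list), 33 after quantile normalisation and 34 with a common median. Replicates 1 and 2 alone found 33, and so did replicates 3 and 4 alone. Ranks among probes above 0 found 45, ranks among single-gene probes 44, median ranks 42 and a minimum of 3 arrays above 0 per genotype 44. Leaving out each array found 39 to 44. With the replicate block, taken as each *atpd* rank above the WT rank of its number, 45 were found. AT5G49840 was lost in 11 settings, AT5G19140 in 9 and AT3G52070 in 8. Leaving out the 17 loci before taking 50 kept all 45 and added 5. This alternative is among the 19, but by its construction it could lose none of the 45. It was chosen after seeing the data. The count called higher by limma was 44 with the replicate number as a block, where 23.3% of all tested probes were called higher. Without each array it was 44 to 45, where 17.8% to 21.1% of all tested probes were. AT1G44830 lost its call with the block and without *atpd* replicate 1, 3 or 4, and no other of the 45 lost its call in any of the 15 other fits. The median rank difference, 40.4 points, was 48.7 with ranks over probes above 0, where the block of probes at 0 is gone from below, 39.6 among single-gene probes, and 40.5 to 42.3 without each array. Motifs and protein lengths were not examined.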
